A study of Mus musculus with 12 samples.

Results

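A set of 10 G protein-coupled receptors of myeloid cells was followed in mouse bone marrow-derived macrophages: the formyl peptide receptors Fpr1 and Fpr2, the complement receptors C3ar1 and C5ar1, the platelet-activating factor receptor Ptafr, and the metabolite and lipid receptors Gpr84, Hcar2, Gpr35, Gpr183 and Gpr18. The 10 genes were chosen by name, as receptors for formyl peptides, complement fragments, lipids and metabolites, with earlier results of these data known. Of the 10, 9 had a row of their own among the 22180 genes that could be named on the array, and all 9 were among the 14079 genes bright enough to be tested. Fpr1 had no row with its symbol alone and was not analysed here.

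Bone marrow was differentiated with L929 cell supernatant, a source of macrophage growth factor, and whole-transcript arrays were run on the macrophages' total RNA. The 4 groups of 3 arrays were knockout macrophages treated with R848 for 4 h, wild-type macrophages treated with R848 for 4 h, knockout macrophages given saline and wild-type macrophages given saline. R848 (resiquimod) is a synthetic agonist of Toll-like receptor 7 in mice. The knockout carried the genotype Rasgef1b fl/fl vav-iCre, in which a Cre driven by the Vav promoter, active in blood-forming cells, acts on a floxed Rasgef1b, so a floxed allele would be targeted in all blood lineages and not in macrophages alone. The labels do not say whether the wild-type mice carried the floxed allele or the Cre, how many animals were used, or whether the 3 arrays of a group came from separate animals, so the spread between arrays may be technical.

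These receptors span the membrane 7 times and pass a signal to heterotrimeric G proteins, mostly of the Gi class, which lower cyclic AMP and release beta-gamma subunits that activate phosphoinositide 3-kinase gamma and phospholipase C beta. Formyl peptide and anaphylatoxin receptors let phagocytes find and kill microbes, because they sense peptides with an N-terminal formyl methionine and the complement fragments C3a and C5a. The metabolite receptors sense small molecules such as medium-chain fatty acids, ketone bodies and oxysterols, which change in tissues during infection and fasting. Macrophages are known to change the levels of many such receptors after Toll-like receptor signals.

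The 250 bases before the start are shown for 4 receptor genes whose levels moved at least 2-fold after R848, in opposite directions for the neighbours Gpr18 and Gpr183. The sequences are RefSeq's on GRCm38.p6, read 5′ to 3′ on the gene's strand, and lie at chr17:17887574-17887823 (plus strand) for Fpr2, chr15:103310439-103310688 (minus strand) for Gpr84, chr14:121915889-121916138 (minus strand) for Gpr18 and chr14:121965194-121965443 (minus strand) for Gpr183. Capitals mark a match to a searched motif, and Fpr2 and Gpr84 had none.
Fpr2: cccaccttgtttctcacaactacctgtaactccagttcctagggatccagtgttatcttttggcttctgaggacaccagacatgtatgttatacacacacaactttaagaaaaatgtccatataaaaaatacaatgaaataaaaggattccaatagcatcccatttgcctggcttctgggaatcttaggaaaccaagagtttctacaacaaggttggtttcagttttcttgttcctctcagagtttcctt
Gpr84: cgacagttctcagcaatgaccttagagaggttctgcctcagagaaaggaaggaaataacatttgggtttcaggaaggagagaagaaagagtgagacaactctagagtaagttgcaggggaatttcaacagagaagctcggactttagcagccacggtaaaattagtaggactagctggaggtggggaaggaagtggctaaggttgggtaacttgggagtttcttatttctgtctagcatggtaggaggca
Gpr18: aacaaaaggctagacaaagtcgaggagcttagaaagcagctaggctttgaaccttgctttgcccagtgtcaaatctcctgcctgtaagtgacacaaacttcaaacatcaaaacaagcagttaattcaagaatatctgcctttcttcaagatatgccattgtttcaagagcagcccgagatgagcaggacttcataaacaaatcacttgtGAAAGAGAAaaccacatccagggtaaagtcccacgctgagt
Gpr183: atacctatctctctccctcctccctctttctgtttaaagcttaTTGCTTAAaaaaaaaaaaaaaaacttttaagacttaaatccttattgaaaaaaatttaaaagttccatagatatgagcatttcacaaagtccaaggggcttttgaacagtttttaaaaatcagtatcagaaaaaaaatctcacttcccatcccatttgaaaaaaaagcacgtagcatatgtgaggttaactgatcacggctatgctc

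Motifs of 5 kinds were searched on both strands in the windows of 300 bases that run 250 bases before to 50 bases after each start: AP-1 (TGANTCA), C/EBP (TTGCNNAA), IRF (GAAANNGAA), PU.1 (GAGGAAG) and the NF-kB consensus. Promoter windows were at hand for 9 of the 10 genes, Hcar2 being the exception. Gpr18, which rose with R848, held 1 IRF match, GAAAGAGAA, at bases -41 to -33 from the start. Gpr183, which fell, held 1 C/EBP match, TTGCTTAA, at bases -207 to -200. Among the genes whose promoters are not printed, C3ar1 held an AP-1 match at bases -22 to -16, C5ar1 an IRF match on the opposite strand at bases -66 to -58, and the second of the 2 Gpr35 windows an AP-1 match at bases -184 to -178 and a PU.1 match at bases -12 to -6. The AP-1 letters read the same on both strands and were counted once, and no match overlapped a match to another motif. Over 32534 windows of the same length, 4.53% held the NF-kB consensus, 7.79% AP-1, 10.8% C/EBP, 8.53% IRF and 13.4% PU.1. The matches therefore describe letters that are common in promoters, and a window without a match says nothing about the factor.

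Levels are RMA log2 values, so a difference of 1 is a doubling, and values at or below a dim limit of 4.31 to 4.35 (set per array) cannot be told from the dimmest rows. RMA gives all arrays nearly the same distribution, so a change in total RNA per cell is not visible. In such bulk samples, fewer cells expressing a gene and less of its RNA per cell cannot be told apart. The targeted gene was checked before the receptors. Rasgef1b measured 9.45, 8.60 and 9.36 in knockout macrophages with R848, against 9.84, 9.84 and 9.69 in wild-type macrophages with R848. With saline it measured 8.63, 7.88 and 8.72 in knockout macrophages, against 9.03, 9.19 and 9.14 in wild-type macrophages. All knockout arrays were lower than all wild-type arrays under the same treatment. Knockout and wild-type arrays also did not overlap, in either direction, for 13.8% of all tested genes with R848 and 16.1% with saline. Rasgef1b was lower by 0.68 averaged over treatments (limma adjusted p = 0.036). It was lower by 0.65 with R848 (adjusted p = 0.333) and by 0.71 with saline (adjusted p = 0.158). The averaged call was lost without knockout replicate 2 of either treatment or without any 1 wild-type array (8 of 12 fits, adjusted p 0.0502 to 0.098), and when the spread was modelled on intensity, robustly (adjusted p = 0.0643). The signal was thus lower on the knockout arrays and not lost, but these fits do not firmly show the reduction. Whether the row's probes lie in the deleted part is not given in the sources used here. All 9 macrophage markers examined, among them Adgre1, Csf1r and Mertk, were above the dim limit on all 12 arrays.

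R848 raised 4 of the 9 receptors and lowered 2, in both genotypes. Fpr2, Gpr84, Hcar2 and Gpr18 rose, Gpr183 and C5ar1 fell, and Gpr35, Ptafr and C3ar1 did not pass the threshold (Benjamini-Hochberg adjusted p under 0.05 over all tested genes, limma). Of all tested genes, 15.6% rose and 26.0% fell in knockout macrophages, and 14.6% rose and 23.6% fell in wild-type macrophages. Fpr2 entered the test only through its R848 arrays, so it could pass only as a gene that differs, and 3 of the 8 other receptors rose. At a change of at least 2-fold, 4 receptors rose and 1 fell in each genotype. Without Fpr2, 3 of the 8 other receptors rose by that much. Over all tested genes, the same size of change was reached upward by 3.86% and downward by 3.86% in knockout macrophages, and upward by 3.82% and downward by 3.39% in wild-type macrophages. Because the set was chosen with earlier results known, these shares are given for scale and do not test the set. The median difference of the 9 receptors was 0.11 in knockout and 0.08 in wild-type macrophages, against -0.03 and -0.02 over all tested genes, so the set moved in both directions and not as a block.

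**Figure D1:**
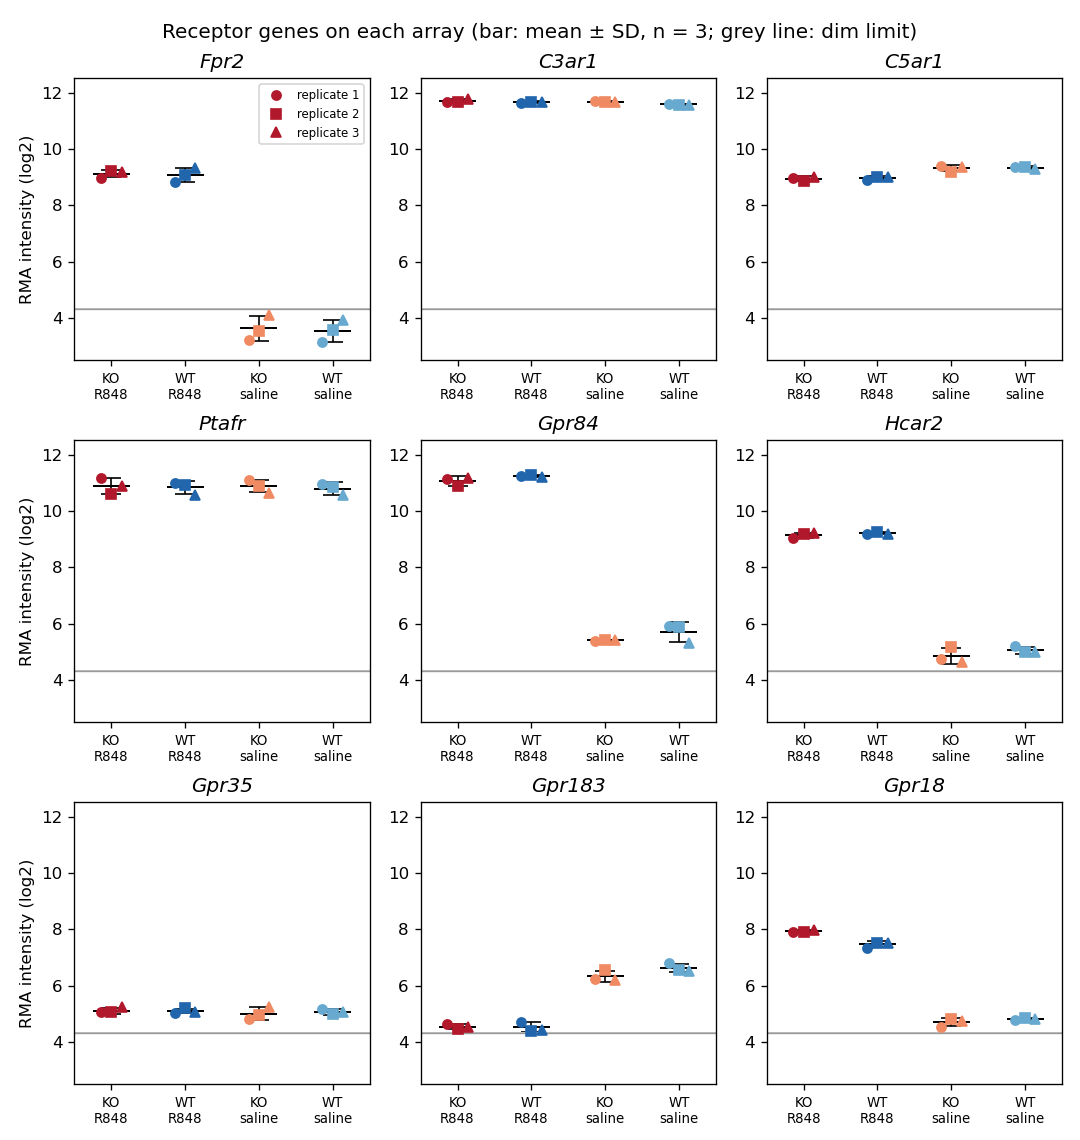
RMA log2 intensity of the 9 receptor genes on each of the 12 arrays, in knockout (KO) and wild-type (WT) macrophages with R848 or saline, with the mean and SD of 3 arrays per group as bars, replicate numbers as symbols and the dim limit as a grey line. Fpr2, Gpr84, Hcar2 and Gpr18 are high on all R848 arrays, Gpr183 is low there, and Gpr35, Ptafr and C3ar1 lie at about 1 level in all groups.

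Fpr2, which in mice binds formyl peptides and also serum amyloid A and annexin A1, was the 1 receptor below the dim limit on every saline array. In knockout macrophages it measured 8.98, 9.20 and 9.17 with R848, against 3.23, 3.56 and 4.11 with saline. In wild-type macrophages it measured 8.83, 9.08 and 9.33 with R848, against 3.16, 3.57 and 3.92 with saline. All 6 saline arrays were below the dim limit and all 6 R848 arrays were far above it, so Fpr2 entered the test only through the R848 arrays. The group means were 9.12 with R848 and 3.63 with saline in knockout macrophages, and 9.08 with R848 and 3.55 with saline in wild-type macrophages. Because the saline level is not known beyond being below the dim limit, the increase is a lower bound. With the saline level set at that limit, it was at least 27.6-fold in knockout and at least 27.0-fold in wild-type macrophages. The limma call used the saline values as measured, and the bound itself was not tested.

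Of the receptors for complement fragments, C5ar1 fell and C3ar1 did not pass the threshold. C5ar1, the signalling receptor for C5a that draws phagocytes to sites of complement activation, measured 8.96, 8.85 and 9.02 in knockout macrophages with R848, against 9.39, 9.19 and 9.35 with saline. In wild-type macrophages C5ar1 measured 8.88, 9.02 and 9.01 with R848, against 9.35, 9.37 and 9.29 with saline. The R848 and saline arrays did not overlap in either genotype, as for 48.8% of all tested genes in knockout and 48.1% in wild-type macrophages. C5ar1 fell, with a log2 difference of -0.37 ± 0.08 in knockout (adjusted p = 0.00146) and -0.37 ± 0.08 in wild-type macrophages (SE; adjusted p = 0.00157), which is 1.29-fold lower in each. The gene next to C5ar1 on the chromosome, C5ar2, which also binds C5a but couples poorly to G proteins, fell further. Its log2 difference was -1.39 in knockout (adjusted p = 1.43e-07) and -1.36 in wild-type macrophages (adjusted p = 1.93e-07).

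C3ar1, the receptor for C3a, was at a high and even level. It measured 11.65, 11.68 and 11.76 in knockout macrophages with R848, against 11.69, 11.65 and 11.67 with saline. The wild-type values of C3ar1 were 11.62, 11.68 and 11.66 with R848, against 11.60, 11.56 and 11.57 with saline. The groups overlapped in knockout and not in wild-type macrophages, where the gap was a few hundredths of a log2 unit. In wild-type macrophages 48.1% of all tested genes did not overlap. The differences of 0.03 (95% interval -0.11 to 0.16) in knockout and 0.08 (-0.06 to 0.21) in wild-type macrophages did not pass the threshold (adjusted p = 0.78 and 0.40). Its arrays spread least of the 9 receptors, with an SD of 0.02 in knockout macrophages with saline, whereas Fpr2 spread most in the same group, with an SD of 0.45 below the dim limit.

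Ptafr, the receptor for the lipid mediator platelet-activating factor, was also high in every group. It measured 11.16, 10.61 and 10.89 in knockout macrophages with R848, against 11.08, 10.89 and 10.65 with saline. The wild-type values of Ptafr were 11.00, 10.93 and 10.56 with R848, against 10.97, 10.86 and 10.55 with saline. All groups overlapped, and the R848 differences were 0.01 (95% interval -0.32 to 0.35; adjusted p = 0.957) in knockout and 0.04 (-0.30 to 0.37; adjusted p = 0.889) in wild-type macrophages. These intervals are wider than those of C3ar1, so smaller changes of Ptafr were not detectable with these arrays.

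Gpr84, a Gi-coupled receptor activated by medium-chain fatty acids, rose on all R848 arrays of both genotypes. It measured 11.13, 10.87 and 11.18 in knockout macrophages with R848, against 5.37, 5.42 and 5.43 with saline. Wild-type macrophages had 11.25, 11.27 and 11.21 with R848, against 5.91, 5.90 and 5.30 with saline. Both saline groups were above the dim limit, and no R848 array came near a saline array. Because the saline values were not far above that limit, the fold may be understated. The difference was 5.65 ± 0.13 (SE), a 50.3-fold increase, in knockout (adjusted p = 2.52e-13) and 5.54 ± 0.13, a 46.5-fold increase, in wild-type macrophages (adjusted p = 3.11e-13). It was the 8th largest increase among all tested genes in knockout and the 9th in wild-type macrophages.

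Hcar2, the Gi-coupled receptor for the ketone body beta-hydroxybutyrate and for niacin, followed Gpr84 in direction. It measured 9.04, 9.18 and 9.20 in knockout macrophages with R848, against 4.76, 5.17 and 4.65 with saline. The wild-type values of Hcar2 were 9.18, 9.24 and 9.19 with R848, against 5.21, 5.0 and 4.99 with saline. The groups lay far apart. The saline values sat less than 1 log2 unit above the dim limit, where differences are compressed, so the fold may be understated. The increase was 4.28 ± 0.11 (SE), or 19.4-fold, in knockout (adjusted p = 7.44e-13) and 4.14 ± 0.11, or 17.6-fold, in wild-type macrophages (adjusted p = 1.2e-12). Hcar1, the lactate receptor encoded next to Hcar2, did not pass the threshold, with differences of 0.13 in knockout (adjusted p = 0.422) and 0.18 in wild-type macrophages (adjusted p = 0.259).

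Gpr35, which responds to the tryptophan metabolite kynurenic acid, did not pass the threshold. It measured 5.05, 5.06 and 5.24 in knockout macrophages with R848, against 4.82, 4.95 and 5.25 with saline. Wild-type macrophages had 5.03, 5.20 and 5.08 with R848, against 5.17, 4.98 and 5.05 with saline. The groups overlapped in both genotypes, and the differences were 0.11 (95% interval -0.12 to 0.33; adjusted p = 0.442) in knockout and 0.04 (-0.19 to 0.26; adjusted p = 0.828) in wild-type macrophages. Its values sat less than 1 log2 unit above the dim limit, where differences are compressed.

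Gpr183, also called EBI2, is the receptor for the oxysterol 7alpha,25-dihydroxycholesterol and guides immune cells within lymphoid tissue. It measured 4.64, 4.47 and 4.52 in knockout macrophages with R848, against 6.24, 6.56 and 6.22 with saline. In wild-type macrophages it measured 4.73, 4.41 and 4.43 with R848, against 6.79, 6.55 and 6.53 with saline. The R848 values were close to the dim limit on every array, so the size of the fall may be understated. Gpr183 fell, with a log2 difference of -1.80 ± 0.11 (SE; adjusted p = 6.96e-09) in knockout and -2.10 ± 0.11 (adjusted p = 1.37e-09) in wild-type macrophages, 3.47-fold and 4.29-fold lower with R848. It held rank 89 of all tested genes, counted from the largest decrease, in knockout and rank 37 in wild-type macrophages.

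Gpr18, for which N-arachidonoylglycine and resolvin D2 have been proposed as ligands, lies beside Gpr183 on chromosome 14 and moved the other way. It measured 7.90, 7.90 and 7.98 in knockout macrophages with R848, against 4.55, 4.82 and 4.74 with saline. In wild-type macrophages it measured 7.34, 7.53 and 7.52 with R848, against 4.78, 4.85 and 4.81 with saline. The R848 arrays were all above the saline arrays, and the knockout R848 arrays were all above the wild-type R848 arrays. Of all tested genes, 48.8% in knockout and 48.1% in wild-type macrophages did not overlap between R848 and saline. Between genotypes with R848, 13.8% did not overlap. The saline values also lay less than 1 log2 unit above the dim limit, so the rise with R848 and any saline difference between genotypes may be understated. The increase was 3.22 ± 0.08 (SE), or 9.34-fold, in knockout (adjusted p = 6.15e-13) and 2.65 ± 0.08, or 6.28-fold, in wild-type macrophages (adjusted p = 4.96e-12). The starts of Gpr18 and Gpr183 lie 49305 bases apart, and both genes overlap Ubac2. Ubac2 itself did not pass the threshold, with R848 differences of 0.23 in knockout (adjusted p = 0.0546) and 0.12 in wild-type macrophages (adjusted p = 0.327).

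**Figure D2:**
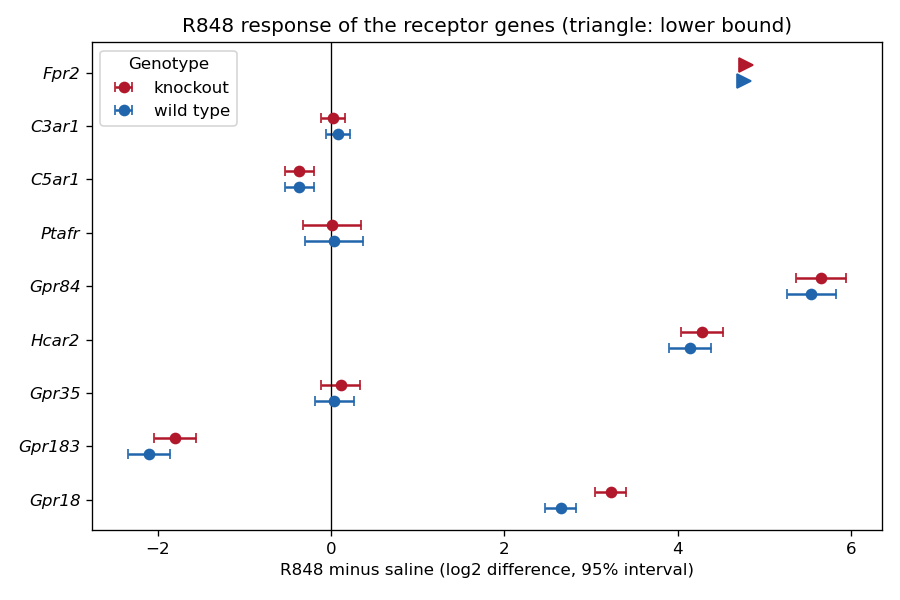
R848 minus saline for the 9 receptor genes, as the log2 difference with its 95% interval, in knockout macrophages (upper point of each pair) and wild-type macrophages (lower point), 3 arrays per group, and for Fpr2 as a triangle at its lower bound with no interval. Fpr2, Gpr84, Hcar2 and Gpr18 lie far right of 0, Gpr183 and C5ar1 left of it, and the intervals of the genotypes stand apart for Gpr18, whose interaction did not pass the adjusted threshold.

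The genotype comparisons asked whether Rasgef1b, a guanine nucleotide exchange factor gene, bore on these receptors. With R848, 1 of the 9 receptors passed the threshold, Gpr18, which was higher in knockout macrophages, and 0.135% of all tested genes passed. Gpr18 averaged 7.93 ± 0.05 in knockout macrophages with R848 and 7.46 ± 0.11 in wild-type macrophages with R848 (SD, n = 3 each). The difference was 0.46 ± 0.08 (SE; 95% interval 0.29 to 0.64), or 1.38-fold, with a limma adjusted p of 0.0461, just inside the threshold. With saline, Gpr18 was 0.11 lower in knockout macrophages and did not pass (adjusted p = 0.625). The R848 response of Gpr18 was larger in knockout macrophages by 0.57 ± 0.12 (95% interval 0.32 to 0.82; unadjusted p = 0.000225), but this interaction did not pass after adjustment (adjusted p = 0.453, and 0.228 to 0.929 over the alternatives). The knockout effect on Gpr18 is thus not shown to differ between R848 and saline, and the low saline values enter this comparison.

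The call for Gpr18 with R848 was lost when any of 10 of the 12 arrays was left out, with differences of 0.40 to 0.50 over all 12 such fits and adjusted p of 0.0608 to 0.163 in those 10. These were all 3 arrays of knockout R848, wild-type R848 and wild-type saline, and replicate 3 of knockout saline. It held without knockout saline replicate 1 (adjusted p = 0.0246) or replicate 2 (adjusted p = 0.0435). Of the other alternatives, median centring (adjusted p = 0.0884), a robust spread modelled on intensity (0.0573), no filter on dim rows (0.0512) and a fit of the compared arrays alone (0.0812) also ended the call. The direction was the same in every one of these fits.

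Markers of other cells were set beside this difference. Of 9 neutrophil markers, S100a9 and Elane were above the dim limit on all arrays, whereas Ly6g, S100a8, Retnlg, Mpo, Camp and Ltf were above it on 0 arrays of either R848 group. The summed linear level of the neutrophil list, these dim markers included, was 149 to 153 in knockout macrophages with R848. It was 132 to 143 in wild-type macrophages with R848. S100a9 was higher in knockout macrophages with R848 by 0.47 ± 0.09, a difference of about the size of that of Gpr18, and did not pass the threshold (adjusted p = 0.0866). Elane did not share this rise, with a knockout minus wild-type difference of -0.03 with R848 (limma adjusted p = 0.938). The dendritic cell list, of which Flt3, Xcr1 and Cd209a of 5 measured markers were above the dim limit on all arrays, summed to 486 to 573 in knockout and 508 to 532 in wild-type macrophages with R848. Its mean log2 level was 5.34 to 5.37 in knockout and 5.28 to 5.29 in wild-type macrophages with R848. The B cell, T cell, mast cell and fibroblast lists overlapped between these groups in their summed levels, with 1 of 4, 2 of 6, 0 of 5 and 3 of 5 measured markers above the dim limit on all arrays. The B cell markers Ms4a1, Cd79a and Pax5 and the T cell markers Cd3e, Cd3g, Cd3d and Cd8a were above it on 0 arrays of either R848 group. The part of these markers in the Gpr18 difference was not tested.

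Gpr84 was the other receptor whose knockout and wild-type arrays with R848 did not overlap, and in the opposite direction. It averaged 11.06 ± 0.17 in knockout and 11.24 ± 0.03 in wild-type macrophages with R848 (SD, n = 3 each), a difference of -0.18 (95% interval -0.47 to 0.10; adjusted p = 0.756). With 2 of the 9 receptors not overlapping, the background is 13.8% of all tested genes. With saline it averaged 5.41 ± 0.03 in knockout and 5.70 ± 0.35 in wild-type macrophages, where replicate 3 at 5.30 lay below the other arrays. That difference of -0.30 had an unadjusted p of 0.0433 and an adjusted p of 0.381. Averaged over treatments Gpr84 was lower in knockout macrophages by 0.24 ± 0.10 (SE; adjusted p = 0.22), and by 0.34 (adjusted p = 0.0273) when wild-type saline replicate 3 was left out. Over the 19 alternatives that averaged value had an adjusted p of 0.0273 to 0.412, and this was the 1 alternative that passed.

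With saline, 0 of the 9 receptors passed the threshold in limma, against 0.334% of all tested genes, and 2 had an unadjusted p under 0.05, Gpr84 and Gpr183, as did 12.6% of all tested genes. Gpr183 averaged 6.34 ± 0.19 in knockout and 6.62 ± 0.14 in wild-type macrophages with saline (SD, n = 3 each), a difference of -0.28 ± 0.11 with overlapping arrays (unadjusted p = 0.0249, adjusted p = 0.302). C3ar1 was the 1 receptor whose saline arrays did not overlap between genotypes, a pattern that 16.1% of all tested genes showed, and its difference of 0.09 did not pass (adjusted p = 0.585). Hcar2 was 0.21 lower in knockout macrophages with saline and 0.06 lower with R848, with adjusted p of 0.479 and 0.925.

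The remaining receptors did not pass in either genotype comparison, and their 95% intervals are given. For Fpr2 the knockout minus wild-type difference was 0.04 with R848 (95% interval -0.41 to 0.48), whereas with saline it was below the dim limit in both genotypes and no difference could be read. For C5ar1 it was -0.03 under both treatments (-0.20 to 0.14). For Gpr35 it was 0.01 with R848 (-0.21 to 0.24) and -0.06 with saline (-0.28 to 0.16). For Ptafr it was 0.06 with R848 (-0.28 to 0.39) and 0.08 with saline (-0.26 to 0.42). The intervals of C5ar1 and Gpr35 were the narrower ones, and a genotype difference of Fpr2 or Ptafr would have had to be larger to be seen.

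No receptor passed the test for a different R848 response in the knockout (0 of 9 in limma), against 0.0142% of all tested genes. At an unadjusted p under 0.05 there was 1, Gpr18, against 4.93% of all tested genes. The same count for genotype averaged over treatments was 0 of 9, against 1.78% of all tested genes. At an unadjusted p under 0.05 there were 2, Gpr18 and Gpr84, against 16.1% of all tested genes, a share near that background. The interaction was 0.11 for Gpr84 (95% interval -0.29 to 0.52), 0.14 for Hcar2 (-0.20 to 0.49) and 0.30 for Gpr183 (-0.04 to 0.65). The increases of Gpr84 and Hcar2 were each above 4 log2 units, larger than any genotype difference inside these intervals. The median interaction of the 9 receptors was 0.07, against -0.01 over all tested genes.

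**Figure D3:**
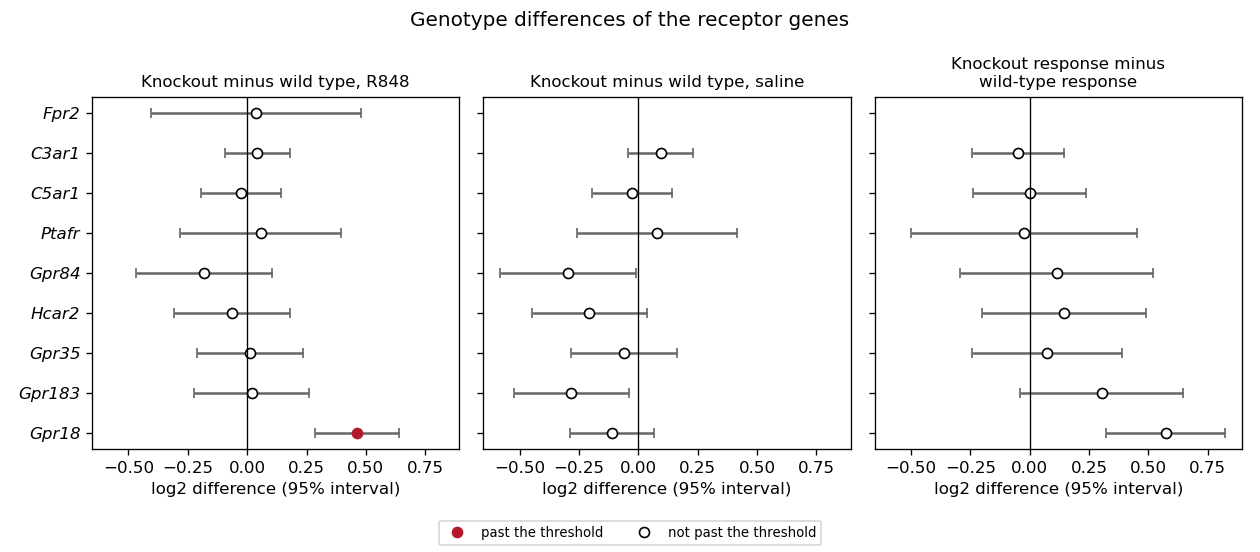
Knockout minus wild type for the 9 receptor genes with R848 (left) and with saline (middle), and the knockout R848 response minus the wild-type R848 response (right), each as a log2 difference with its 95% interval from 3 arrays per group; Fpr2 is left out where saline arrays enter, since these were below the dim limit. The filled point is Gpr18 with R848 at 0.46, the 1 value past the adjusted threshold; open points did not pass it.

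The genes whose pattern over the 12 arrays was most like that of each receptor were found by the root mean square difference after each gene's own mean was subtracted. Cd69 was the closest gene both to Gpr84 (0.24 log2 units) and to Fpr2 (0.26, with the 6 saline arrays of Fpr2 below the dim limit), and the next were Il1a for Gpr84 (0.30) and Tarm1 for Fpr2 (0.34). Hcar2 was closest to Tma16 (0.21) and Nfkbiz (0.23), and Gpr183 to Efr3b (0.13) and Pdxk (0.13). Gpr18 was closest to Tnfsf9 (0.15) and Gm19765 (0.16). Gm19765 was, like Gpr18, higher in knockout macrophages with R848, by 0.49, and did not pass the threshold (limma adjusted p = 0.0645). For Tnfsf9 that difference was 0.19 (adjusted p = 0.616). Both genes were picked for likeness to Gpr18 on these same arrays, so a shared difference is no separate evidence. C5ar1 was closest to Ppm1m and Cmtm3 (0.05 each). For the receptors that did not pass with R848, small distances follow from flat patterns: C3ar1 lay 0.03 from Abcg5, Gpr35 0.04 from Cyp4b1 and Ptafr 0.08 from Prr13. Among the receptors themselves, Fpr2 and Gpr84 lay 0.40 apart and Gpr18 and Hcar2 0.67.

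Related receptors outside the set were read from a list of 28, of which 23 had a row and 13 were tested. In each genotype R848 raised 3 of the 13 and lowered 3. The shares of all tested genes were 15.6% higher and 26.0% lower in knockout macrophages, and 14.6% higher and 23.6% lower in wild-type macrophages, and the share lowered was near that background. Gpr31b, which in mouse intestine senses lactate and pyruvate, rose by 2.94 ± 0.11 in knockout (adjusted p = 2.94e-11) and by 3.06 ± 0.11 in wild-type macrophages (SE; adjusted p = 2.18e-11). Gpr132, a receptor for oxidized fatty acids, rose by 1.64 and 1.61 in knockout and wild-type macrophages. Gpr65, a proton sensor, fell, with log2 differences of -1.99 in knockout and -1.79 in wild-type macrophages (adjusted p = 1.41e-09 and 5.15e-09). Gpr65 measured 6.74, 7.01 and 6.93 in knockout macrophages with R848, against 6.51, 6.79 and 6.55 in wild-type macrophages with R848. With saline it measured 9.01, 8.86 and 8.78 in knockout macrophages, against 8.21, 8.55 and 8.45 in wild-type macrophages. Averaged over treatments it was the 1 receptor of the 13 tested that differed by genotype, as did 1.78% of all tested genes. Gpr65 was 0.38 ± 0.08 higher in knockout macrophages (limma adjusted p = 0.026). The difference was 0.28 with R848 (adjusted p = 0.459) and 0.48 with saline (adjusted p = 0.0896). With saline the summed linear level of the dendritic cell list was 598 to 792 in knockout and 470 to 542 in wild-type macrophages. The knockout minus wild-type difference with saline was 0.52 for Cd209a (limma adjusted p = 0.0716) and 0.27 for Xcr1 (adjusted p = 0.231). It was 0.15 for Flt3 (adjusted p = 0.441) and -0.12 for Siglech (adjusted p = 0.64). Zbtb46 was above the dim limit on 0 arrays of either saline group. With R848 the difference was -0.03 for Cd209a and 0.12 for Xcr1. The part of these markers in the Gpr65 difference was not tested. The averaged call was lost in 6 of 12 fits with 1 array left out, those without knockout R848 replicate 2 or 3, knockout saline replicate 1 or 2, or wild-type R848 replicate 1 or 3 (adjusted p 0.0513 to 0.0692). The list's median R848 difference was 0.13 in knockout and 0.03 in wild-type macrophages.

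Genes that make or remove the receptors' ligands formed a list of 28, with 24 on the array and 17 tested. R848 raised 7 and lowered 2 in knockout macrophages, and raised 9 and lowered 2 in wild-type macrophages. Set beside these counts, over all tested genes 15.6% rose and 26.0% fell in the knockout, and 14.6% rose and 23.6% fell in the wild type. Saa3, a serum amyloid A of the family that Fpr2 binds, measured 11.93, 12.11 and 11.98 in knockout macrophages with R848, against 5.78, 6.19 and 5.71 with saline. In wild-type macrophages Saa3 measured 11.77, 12.05 and 12.14 with R848, against 5.90, 6.39 and 6.08 with saline. Saa3 thus rose by 6.11 ± 0.14 in knockout (adjusted p = 2.01e-13) and by 5.86 ± 0.14 in wild-type macrophages (SE; adjusted p = 3.11e-13). Cfb, factor B of the alternative complement pathway that yields C3a and C5a, rose by 1.88 in knockout and by 1.85 in wild-type macrophages, and averaged over treatments it was 0.27 ± 0.06 higher in knockout macrophages (adjusted p = 0.0341). The averaged call of Cfb was lost in 9 of 12 fits with 1 array left out (adjusted p 0.0575 to 0.098), all but those without knockout R848 replicate 1, knockout saline replicate 1 or wild-type saline replicate 2. Pla2g4a, the cytosolic phospholipase A2 that releases arachidonic acid and lyso-lipids, rose by 1.83 in knockout and by 1.66 in wild-type macrophages. Lpcat2, which makes platelet-activating factor in macrophages, rose by 0.97 in knockout and by 0.94 in wild-type macrophages, whereas Ptafr did not pass. The list's median difference was 0.10 in knockout and 0.26 in wild-type macrophages.

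G protein signalling partners formed a list of 34, with 31 on the array and 30 tested. In knockout macrophages R848 raised 9 and lowered 12, and in wild-type macrophages it raised 8 and lowered 11. The background over all tested genes was again 15.6% higher and 26.0% lower in the knockout, and 14.6% higher and 23.6% lower in the wild type. The regulatory subunits of phosphoinositide 3-kinase gamma both rose, Pik3r5 by 1.72 in each genotype and Pik3r6 by 1.86 in knockout and 1.81 in wild-type macrophages. Arrb1, an arrestin that ends receptor signalling, fell, with log2 differences of -1.90 in knockout and -1.62 in wild-type macrophages. Adcy7, an adenylyl cyclase of blood cells, fell, with log2 differences of -1.39 in knockout and -1.42 in wild-type macrophages (adjusted p = 3.84e-10 and 3.22e-10). The list's median was -0.04 in knockout and -0.06 in wild-type macrophages. In limma 0 of the tested genes of the 3 lists passed between genotypes with R848, 0 with saline and 0 in the interaction. At an unadjusted p under 0.05 there were 2 related receptors, 2 ligand genes and 1 signalling partner with R848, 2, 5 and 2 with saline, and 0, 1 and 0 in the interaction. The shares of all tested genes at that p were 8.74% with R848, 12.6% with saline and 4.93% in the interaction. Averaged over treatments, 1 related receptor, 1 ligand gene and 0 signalling partners passed the adjusted threshold, against 1.78% of all tested genes. At an unadjusted p under 0.05 there were 2, 3 and 3, against 16.1%.

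**Figure D4:**
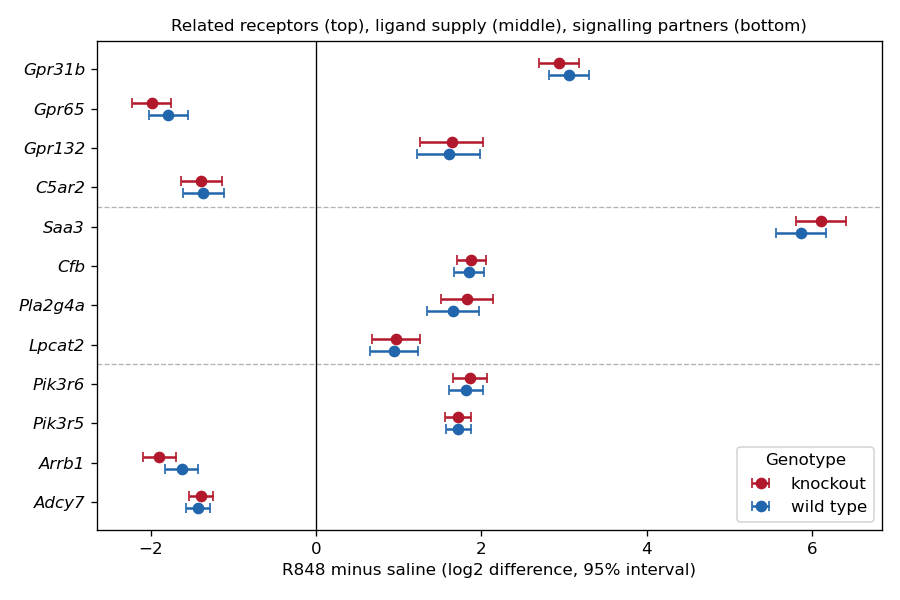
R848 minus saline as the log2 difference with its 95% interval in knockout macrophages (upper point) and wild-type macrophages (lower point) for the 4 genes named from each list, 3 arrays per group. Saa3 stands far right at 6.11 and 5.86, and Gpr65, C5ar2, Arrb1 and Adcy7 lie left of 0 in both genotypes.

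For some receptors the arrays of 1 replicate number lay on the same side of their group's mean in all 4 groups. How often this occurs over all tested genes was not counted. Fpr2 was below its group's mean on the array of number 1 in all 4 groups and above it on number 3 in all 4. Its saline values were below the dim limit, so these deviations cannot be read there. With R848, Fpr2 on number 3 was above the mean by 0.05 in knockout and 0.25 in wild-type macrophages. Ptafr went the other way, above the mean on number 1 in all 4 groups and below it on number 3 in 3 of 4. Gpr18 was below the mean on number 1 in all 4 groups, and Gpr183 on number 3 in all 4. With the replicate number in the fit as a block, the SE of Ptafr's R848 differences was 0.11 in place of 0.16. That of Gpr84 stayed at 0.13 and that of C5ar1 at 0.08. The 6 receptors called in each genotype were still 6. The labels do not say what a number stands for, and what the arrays of a number share was not tested.

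**Figure D5:**
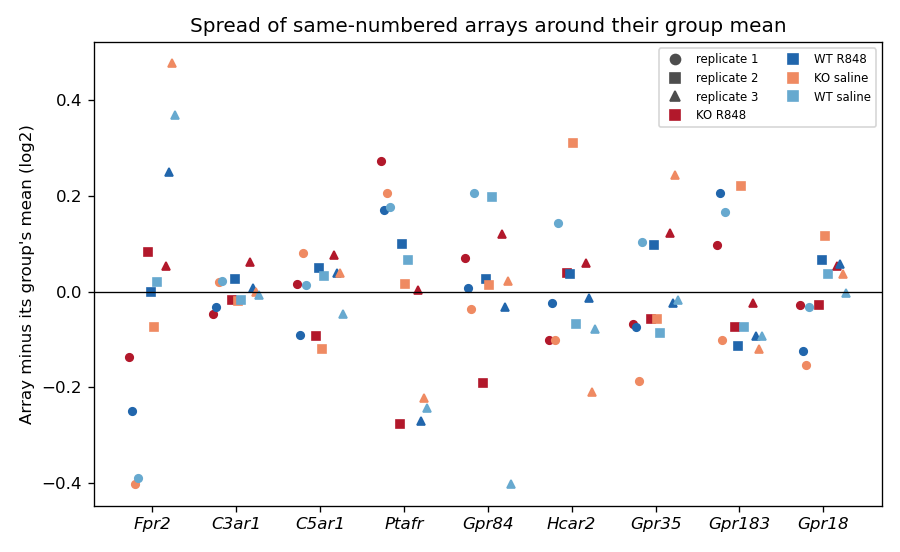
Each array's value minus the mean of its group of 3, in log2 units, for the 9 receptor genes, with the replicate number as the symbol and from left to right within each gene, and the group as the colour. Number 1 lies below 0 and number 3 above 0 in all 4 groups for Fpr2, and number 1 lies above 0 in all 4 groups for Ptafr. The saline values of Fpr2 are below the dim limit and cannot be read.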

How the data were processed

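Per the labels' protocols, biotin-labelled product of amplified total RNA from 12 macrophage samples was read on Affymetrix Mouse Gene 2.1 ST arrays. The deposited values are log2 intensities made by the authors with Affymetrix Expression Console and RMA (background correction, quantile normalization and summary of probes), per the submitters' processing notes. For tool versions, settings and genome build, the sources used here give nothing. Without scanner files or array batches, group and batch cannot be told apart where they coincide.

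Of 34472 rows, 23521 had 1 gene symbol, 1814 several and 9137 none; only rows of 1 symbol were named. For 1082 symbols with several rows the row of highest mean was kept; each measured receptor had 1 row. A gene was tested if it exceeded the 40th percentile of these rows on at least 3 arrays, which kept 14079 genes and removed 8101. All 12 arrays entered 1 fit of group means (limma 3.58.1, R 4.3.3, lmFit and eBayes, no covariate), with 6 contrasts and Benjamini-Hochberg adjustment over all tested genes at 0.05. Intervals are 95% intervals of that fit, and the number of arrays limits the precision. The model was run on simulated log2 values with independent noise on each array and shifts in the knockout R848 group only. Such values cannot show how the model does where same-numbered arrays correlate, and no conclusion is drawn from them. With 3 arrays against 3, an exact permutation test could not go below p = 0.1, so none was used. Residuals of same-numbered arrays correlated at 0.27, 0.17 and 0.28 between knockout R848 and knockout saline, above 0.1 for every number. Between the other groups compared at least 1 number was below 0.1. Wild-type R848 and saline gave 0.25, -0.06 and 0.23, and number 1 of knockout and wild type with R848 gave 0.33. These values do not establish a pairing, the labels name none, and the reported fit used none.

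The receptors and gene lists were chosen with earlier results of these data known. Named genes were the 10 receptors, Rasgef1b, the 2 tested genes most alike to each receptor, and from each list up to 4 with the largest R848 difference in wild type among those past the threshold plus any past it between genotypes. The neighbours C5ar2, Hcar1 and Ubac2 and several cell type markers were named in addition. Markers came from 7 cell type lists. Alternatives were median centring, cyclic loess, an intensity trend with robust spread, array weights, no filter or a stricter one, only the arrays compared, replicate blocks, and each array left out. Those for Cfb, Gpr65 and Rasgef1b averaged over treatments were added after seeing the data.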

Additional observations from a re-analysis of the deposited data

How the results depend on the processing

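The R848 calls of the 6 receptors stayed on their side of the threshold in every alternative run, and the count of receptors called was 6 in each genotype throughout. Fpr2 is 1 of the 6 and entered the test only through its R848 arrays. Of 272 alternative values for single receptors, 258 kept direction and side, 14 lost the call and 0 reversed; the 14 all concern Gpr18 between genotypes with R848. The count of receptors called there, 1 as reported, was 0 under median centring (adjusted p = 0.0884 for Gpr18), 0 with a robust spread modelled on intensity (0.0573), 0 with no filter (0.0512) and 0 with only the arrays compared (0.0812); it was 0 to 1 when 1 array was left out. It was 1 under cyclic loess (0.026), the stricter filter (0.0474), array weights (0.0373) and the replicate block (0.0203). More genes were tested with no filter and fewer arrays entered in the fits that left arrays out; the cause under the other alternatives was not tested. The count for genotype averaged over treatments was 0 to 1 when 1 array was left out, with Gpr84 called without wild-type saline replicate 3. No call of a receptor changed with the replicate block, in all 12 arrays or within genotype.

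Over all tested genes, 47 differed by genotype with saline as reported, 99 with the replicate block and 8 with only the arrays compared; 251 differed in the average over treatments as reported, 402 with the replicate block and 73 without wild-type R848 replicate 2; the interaction held 2 as reported and 1 to 3 otherwise. The differences of C3ar1 and Ptafr in knockout macrophages with R848, which did not pass, were -0.01 and -0.02 under median centring. Other rows of a gene could not be tried, since each measured receptor had 1 row. Low signal limits Fpr2, Gpr18 and Hcar2 with saline, Gpr183 with R848 and Gpr35 throughout. Gpr84 with saline, at 5.30 to 5.91, was also not far above the dim limit, so its differences there may be understated.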
